A study of Mus musculus with 4 samples.

Results

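Complement components, regulators and receptors were followed across the cell types of the mouse lung after intratracheal lipopolysaccharide (LPS, an outer membrane molecule of Gram-negative bacteria that inflames the airspace) and low-dose irradiation of the chest. The 9 genes were C3, Cfb, C1s1, C4b, Serping1, C3ar1, C5ar1, Cfp and Cd55, taken by symbol from the 32285 genes of the count tables. The C1q subunits were left out. All 9 had UMIs (unique molecular identifiers, the tags by which captured molecules are counted) in every library.

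Complement is a cascade of plasma and cell-bound proteins that marks particles for uptake, draws in leukocytes and can lyse membranes. Its classical, lectin and alternative pathways converge on the cleavage of C3. The fragments released from C3 and from the fifth component act on G protein-coupled receptors of myeloid cells. Most circulating complement comes from the liver, and the lung also makes components locally in epithelial cells, fibroblasts and macrophages.

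Cells came from lungs of wild-type male C57BL/6 mice aged 6 to 7 weeks, in 4 libraries with 1 library per group. The PBS group received 100 µL of phosphate-buffered saline into the trachea and the LPS group 200 µg of LPS, and the PBS+RT and LPS+RT groups also received 1 Gy of X-rays to the thorax on the following day. Lungs were taken 48 hours after the injection, which was 24 hours after irradiation. They were digested and enriched for mononuclear cells on Ficoll of grade 1.084 before capture with the 10x 3' kit of version 3.1, an enrichment that can set the shares of granulocytes and of tissue cells. The number of mice behind each library is not given in the labels. Since every group is 1 library, differences between groups could not be checked against replicates and were not tested. The 95% intervals are exact and cover counting error only, and comparisons that use the same library share its values.

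The libraries held 6708 to 10996 barcodes and 65995600 to 80013887 UMIs, of which 33670 cells were used, with a median of 4254 to 8535.5 UMIs per cell. Cells were grouped into 58 clusters without the 9 genes and 40 other complement genes, and 48 clusters were named from markers, as 20 classes. The C1q genes were not kept out of the clustering, and they are among the markers of interstitial macrophages. Names are rebuilt from markers, and every class below is meant as "-like". In each class with at least 50 cells in a library, no marker of its own list was at 0. A class called here Nos2/Arg1 macrophages had 548 cells in LPS and 110 in LPS+RT, against 0 in PBS and 1 in PBS+RT. Neutrophils numbered 76 in PBS and 115 in PBS+RT, against 3559 in LPS and 900 in LPS+RT. Alveolar type 2 cells numbered 19 to 25 per library, too few for a level. Levels are CPM, the usual scaling of a gene's summed UMIs in a class by all UMIs of that class in that library. A level needed 50 cells and a ratio 100 cells in both libraries. A pair of gene and class was called different at 2-fold or more, provided that the library with more held 20 CPM and 30 UMIs.

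On mouse build mm10, with the GENCODE annotation of release M21, all 9 genes lie on the minus strand. C3 spans chr17:57203970-57228136, Cfb chr17:34856374-34862518, C4b chr17:34728380-34743882, C1s1 chr6:124530345-124542359 and C3ar1 chr6:122847138-122856161. Serping1 spans chr2:84765387-84775444, C5ar1 chr7:16246743-16259540, Cfp chrX:20925454-20931555 and Cd55 chr1:130439027-130462744. C2 lies next to Cfb on the same strand. C4b, C1s1 and Cd55 have near copies, C4a, C1s2 and Cd55b, which had 58, 23 and 141 UMIs over all 4 libraries. Reads shared with these copies could have been split or dropped in counting, so the levels of C4b, C1s1 and Cd55 are uncertain to that extent.

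The 250 bases before the start site were available from RefSeq (GRCm38.p6) for 6 of the 9 genes, and not for Cfb, C4b and Serping1. They were searched on both strands for the GAS element TTCNNNGAA, the ISRE core GAAANNGAA, the C/EBP site TTGCNNAA and the NF-kB site by name. Of 32851 such windows in the table, 7.02% held the GAS letters, 7.13% the ISRE letters, 9.56% the C/EBP letters and 3.90% the NF-kB letters. The window of C3 (chr17:57228137-57228386, minus strand) is shown because C3 was the gene called in the most classes in LPS against PBS among the 6, and because it held 1 match, the C/EBP letters in capitals, 45 bases before the start. In C5ar1 the ISRE letters, read on the opposite strand, lay 66 bases before the RefSeq start. That window is not printed, since it lies partly inside the gene as GENCODE draws it. C1s1 held C/EBP letters 242 bases before 1 of its starts. The windows of C3ar1, Cfp and Cd55 held none of the letters. A match is a description of these letters and not evidence of a bound factor.
C3: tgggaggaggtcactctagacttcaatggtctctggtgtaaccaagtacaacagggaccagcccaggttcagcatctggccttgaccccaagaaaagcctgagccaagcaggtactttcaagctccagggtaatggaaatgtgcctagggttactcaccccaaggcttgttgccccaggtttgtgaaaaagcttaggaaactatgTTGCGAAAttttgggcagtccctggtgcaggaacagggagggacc

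By where their levels were highest, the genes other than Cfb divided into a stromal and a leukocyte group. Among classes with a level, C3, C1s1, C4b and Serping1 stood highest in fibroblasts in all 4 libraries. Cfb stood highest in fibroblasts in PBS and PBS+RT and in Nos2/Arg1 macrophages in LPS and LPS+RT. C3ar1 stood highest in interstitial macrophages in the 3 libraries where that class had a level, C5ar1 in neutrophils in all 4, with an interval in PBS that overlapped that of interstitial macrophages, and Cd55 in B cells in all 4. Cfp had no clear first place: interstitial macrophages led in PBS, LPS and LPS+RT, but in LPS+RT their interval overlapped that of dendritic cells, and in PBS+RT classical monocytes and dendritic cells led with overlapping intervals.

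**Figure D1:**
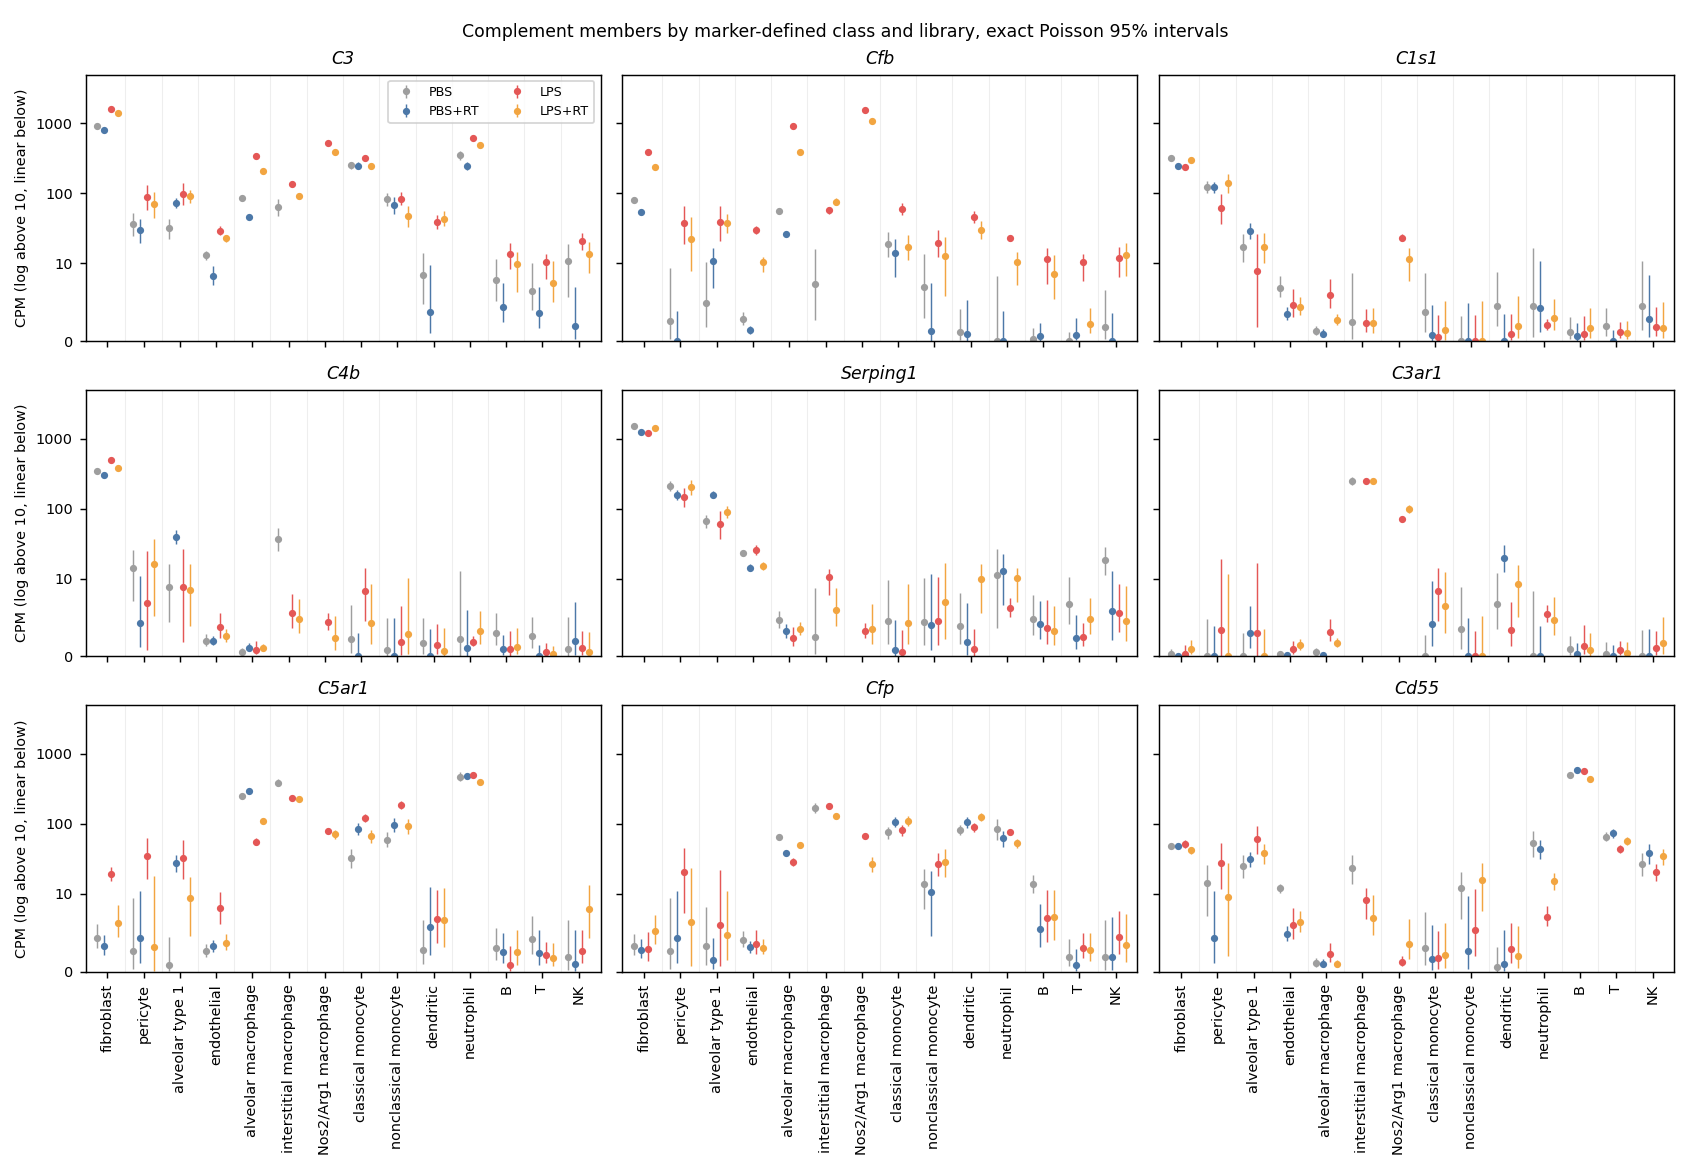
Level of the 9 genes (CPM, on a log axis above 10 and a linear one below) by marker-defined class and library, where a class had at least 50 cells. Platelets, lymphatic endothelial cells and erythroid cells are not drawn. C3, C1s1, C4b and Serping1 are highest in fibroblasts, C3ar1 in interstitial macrophages, C5ar1 in neutrophils and Cd55 in B cells.

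Most pairs of gene and class stayed under the 2-fold limit. In LPS against PBS, 21 pairs over 8 classes met the level limit; 7 were called higher and 2 lower, against 4.22% higher and 3.42% lower among all 49729 pairs of any gene. In LPS+RT against PBS+RT, 5 of 27 pairs over 9 classes were called higher and 4 lower, against 3.79% and 4.69% of all 55316 pairs. In PBS+RT against PBS, 4 of 22 pairs were higher and 1 lower, against 3.73% and 1.88% of 51569. In LPS+RT against LPS, 0 of 34 were higher and 5 lower, against 1.66% and 2.73% of 61395. The pairs are not independent, since 1 gene recurs over classes of the same library. All higher pairs of LPS+RT against PBS+RT were of C3 or Cfb, as were those of LPS against PBS except C5ar1 in nonclassical monocytes.

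**Figure D2:**
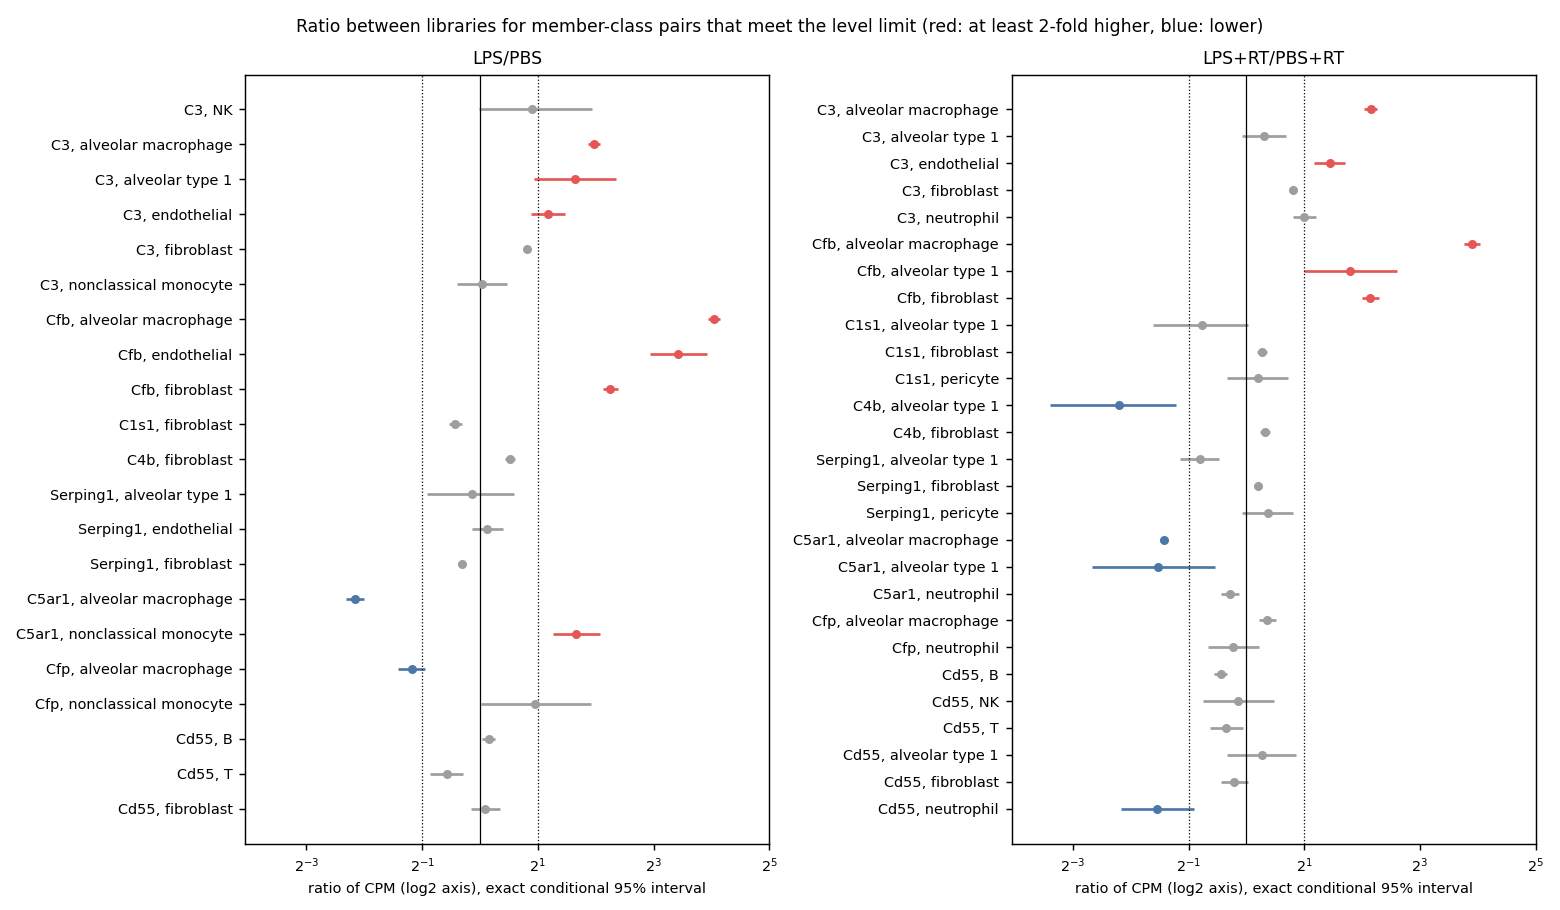
Ratio of each gene's level between libraries (log scale) by class, with exact 95% intervals for counting error, in LPS against PBS and in LPS+RT against PBS+RT, for the pairs that met the level limit; red is called higher and blue lower. Cfb and C3 lie above 1 in alveolar macrophages and fibroblasts in both LPS comparisons, and C5ar1 lies below 1 in alveolar macrophages.

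C3, the component on which all pathways converge, had its highest level in fibroblasts and was higher there in both LPS libraries. Its level was 928 CPM in PBS and 808 in PBS+RT, against 1623 in LPS and 1408 in LPS+RT. The ratio was 1.75 in LPS against PBS (1.69 to 1.81) and 1.74 in LPS+RT against PBS+RT (1.69 to 1.80), under the 2-fold limit. The fibroblast class held alveolar, adventitial and peribronchial clusters, and the adventitial one, which had the highest C3, made up 127 of 893 fibroblasts in PBS and 21 of 418 in LPS. Within alveolar fibroblasts C3 stood at 515, 466, 1482 and 1091 CPM in PBS, PBS+RT, LPS and LPS+RT. There the 2 LPS libraries were 2.88-fold (2.74 to 3.02) and 2.34-fold (2.23 to 2.46) above PBS and PBS+RT. Adventitial fibroblasts had 2012 CPM in PBS, 1973 in PBS+RT and 3267 in LPS+RT, a ratio of 1.66 (1.58 to 1.73) in LPS+RT against PBS+RT. Peribronchial fibroblasts had the least, 78.7 CPM in PBS, 111 in PBS+RT and 215 in LPS+RT. The adventitial and peribronchial clusters had too few cells in LPS for a level. Irradiation went with 0.736 times the C3 level in alveolar fibroblasts of LPS+RT against LPS (0.707 to 0.767).

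**Figure D3:**
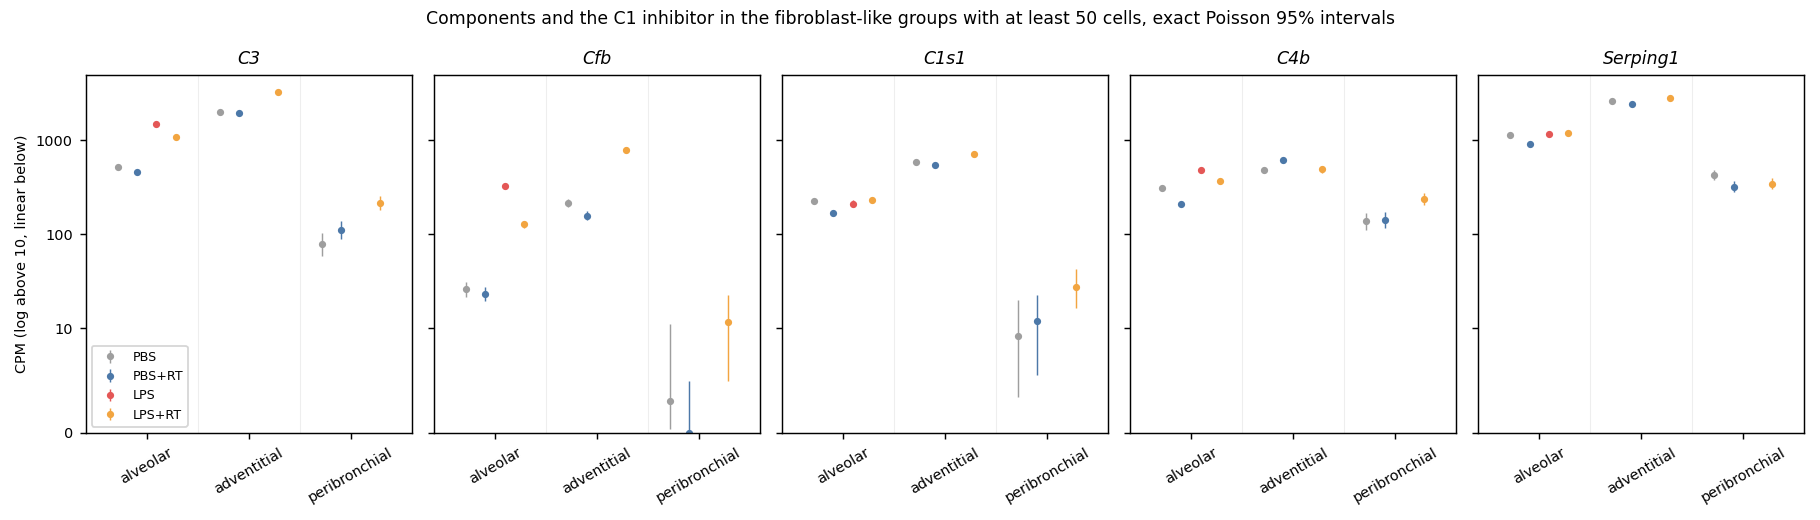
Levels of C3, Cfb, C1s1, C4b and Serping1 (CPM) in alveolar, adventitial and peribronchial fibroblast clusters of each library, with exact 95% intervals for counting error. C3 and Cfb are higher in the LPS libraries within the alveolar cluster group, while C1s1 and Serping1 differ by less than 2-fold there.

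Alveolar macrophages, the resident phagocytes of the airspace, had 86.4 CPM of C3 in PBS and 46.4 in PBS+RT, against 339 in LPS and 206 in LPS+RT. Both LPS libraries stood above both PBS libraries, by 3.93-fold (3.67 to 4.21) and 4.44-fold (4.11 to 4.80). The class consisted of cluster 4, with 564, 669, 13 and 291 cells in the order PBS, PBS+RT, LPS and LPS+RT, and of cluster 18, with high Mki67, a proliferation gene, and 65, 11, 166 and 503 cells. Within cluster 4 the ratio of LPS+RT to PBS+RT was 2.61 (2.36 to 2.89), and within cluster 18 that of LPS to PBS was 2.52 (2.23 to 2.85). Higher C3 with LPS thus held in the LPS comparison that each cluster allowed, at a smaller size than in the class. Cluster 4 had too few cells in LPS, and cluster 18 too few in PBS+RT, for the other comparison. The irradiated libraries had less C3 than their partners, at 0.538 times in PBS+RT against PBS and 0.607 times in LPS+RT against LPS, short of 2-fold.

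Neutrophils had 350, 247, 619 and 493 CPM of C3 in PBS, PBS+RT, LPS and LPS+RT, so the LPS libraries were higher. The ratio of LPS+RT to PBS+RT was 2.00 (1.74 to 2.30), just under the limit. In cluster 30, which held 76 of the 115 neutrophils of PBS+RT, the levels were 141 CPM in PBS+RT, against 205 in LPS and 168 in LPS+RT, and the ratio of LPS+RT to PBS+RT was 1.19 (0.844 to 1.68). The other neutrophil clusters with a level were found in LPS and LPS+RT, and clusters 6 and 10 had 549 to 729 CPM there. Classical monocytes had 252, 249, 321 and 248 CPM, a narrow range. Nos2/Arg1 macrophages had 527 CPM in LPS and 396 in LPS+RT. By share of cells with a C3 UMI after thinning every cell to 2000 UMIs, alveolar macrophages had 14.3%, 8.55%, 54.2% and 31.7% and fibroblasts 51.2%, 39.1%, 77.7% and 61.8%, in the same order. B cells, which should lack C3, had 0.768%, 0.263%, 2.98% and 1.37%. Without thinning the shares in alveolar macrophages were 69.3%, 57.5%, 98.9% and 89.9% at median depths of 23620, 23621.5, 37512 and 25761 UMIs, and those in B cells 4.08%, 3.15%, 6.44% and 5.08% at 5497, 7819, 4984 and 5158.

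Cfb encodes factor B, the protease partner of C3b in the alternative pathway convertase, and its levels differed between the PBS and LPS libraries in macrophages and fibroblasts. In alveolar macrophages its level was 56.1 CPM in PBS and 26.1 in PBS+RT, against 930 in LPS and 388 in LPS+RT. LPS stood 16.6-fold above PBS (15.4 to 17.8) and LPS+RT 14.9-fold above PBS+RT (13.5 to 16.4). The 7 markers of Nos2/Arg1 macrophages, the class with the highest Cfb, summed to 699, 867, 1868 and 1094 CPM in the alveolar macrophages of the 4 libraries, with Nos2 at 0 in PBS and no marker at 0 elsewhere. In the Nos2/Arg1 macrophages themselves they summed to 4013 CPM in LPS and 3572 in LPS+RT. Slc7a2, which is on that list, was also among the top genes of cluster 18, so the sum is not particular to Nos2/Arg1 macrophages. The part of such cells in the Cfb difference was not tested. Within cluster 4 the Cfb ratio of LPS+RT to PBS+RT was 6.79 (6.04 to 7.63), and within cluster 18 LPS stood 7.44-fold above PBS (6.59 to 8.42). Each irradiated library had less Cfb than its partner: 2.15-fold less in PBS+RT than in PBS (1.91 to 2.42) and 2.40-fold less in LPS+RT than in LPS (2.32 to 2.48). Within cluster 4 the PBS+RT level was 1.78-fold lower than in PBS (1.57 to 2.03), under the limit, and within cluster 18 LPS+RT was 2.02-fold lower than LPS (1.95 to 2.09). With cells named by their own marker score, alveolar macrophages of LPS+RT stood at 0.552 times LPS, which is not called.

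**Figure D4:**
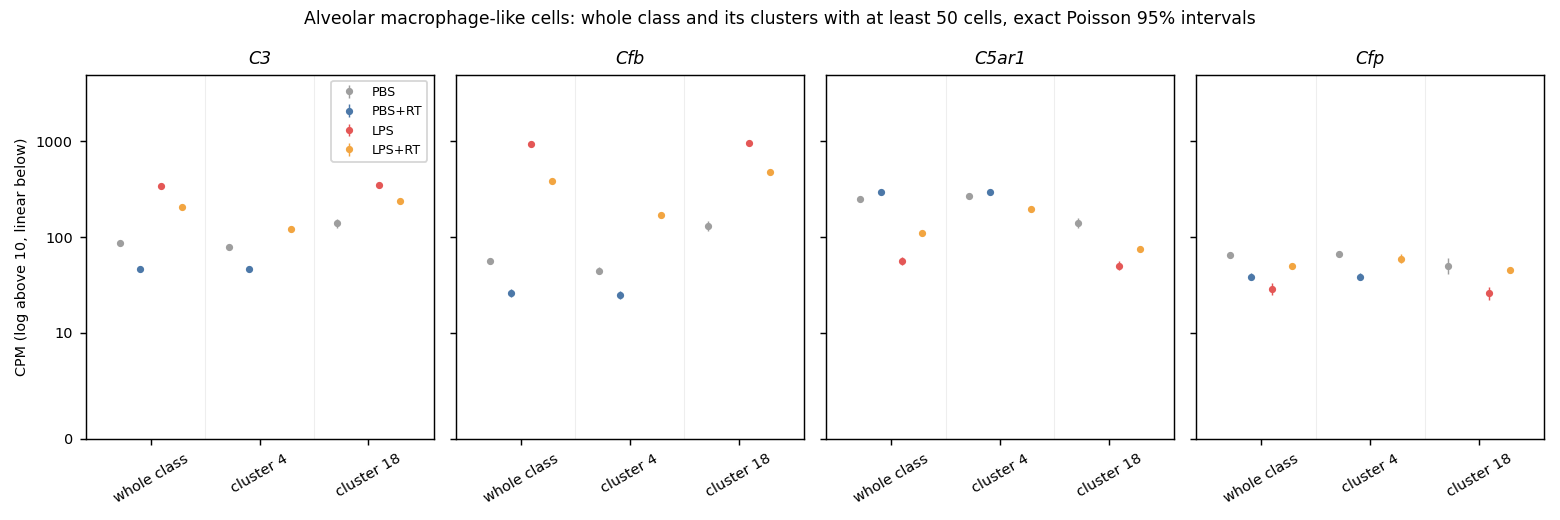
Levels of C3, Cfb, Cfp and C5ar1 (CPM) in alveolar macrophages as a whole and in their clusters 4 and 18 by library, with exact 95% intervals for counting error. Cfb and C3 are higher and C5ar1 lower in LPS libraries, and the differences are smaller within a cluster than in the whole class.

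Nos2/Arg1 macrophages had the highest Cfb level of any class, 1564 CPM in LPS and 1074 in LPS+RT, a ratio of 0.686. Fibroblasts had 80.9 CPM in PBS and 54.9 in PBS+RT, against 386 in LPS and 242 in LPS+RT. Both LPS libraries were above both PBS libraries, 4.77-fold (4.34 to 5.25) without and 4.41-fold (3.97 to 4.91) with irradiation. In alveolar fibroblasts the levels were 26.2, 23.4, 325 and 128 CPM, giving 12.4-fold (10.3 to 15.1) and 5.46-fold (4.51 to 6.67), and 0.393 times (0.354 to 0.437) in LPS+RT against LPS. Adventitial fibroblasts had 215 CPM in PBS, 159 in PBS+RT and 797 in LPS+RT, where LPS+RT was 5.03-fold above PBS+RT (4.43 to 5.72). Peribronchial fibroblasts had at most 11.6 CPM. Classical monocytes had 18.8, 14.1, 60.6 and 17.2 CPM, with LPS highest. Interstitial macrophages had 7.3 CPM in PBS, 57.9 in LPS and 76.6 in LPS+RT. Neutrophils had 0 UMIs in PBS and PBS+RT, where the floor of 3 counts equals 6.86 and 3.20 CPM. They had 22.7 and 10.4 CPM in LPS and LPS+RT, 2.20-fold lower with irradiation (1.55 to 3.20). Cluster 23 held 487 of these neutrophils in LPS and 12 in LPS+RT, and without it the ratio was 0.585, which is not called. Within clusters 6, 10, 17 and 25 it was 0.789, 0.575, 0.704 and 0.466, none called. RNA of other cells, estimated from the Sftpc level of the neutrophils, would give 30.3 CPM in LPS, above what was measured, and its part in the call was not tested. Thinned to 2000 UMIs, 6.85%, 5.16%, 67.6% and 37.2% of alveolar macrophages and 77.8% and 59.1% of the Nos2/Arg1 macrophages of LPS and LPS+RT had a Cfb UMI, against 0%, 0%, 1.99% and 1.82% of B cells. Unthinned shares were 46.3%, 34.4%, 96.1% and 91.1% in alveolar macrophages and 0.186%, 0.525%, 5.75% and 4.19% in B cells.

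C1s1 and C4b belong to the classical pathway, C1s1 as the protease of the C1 complex and C4b as its substrate. C1s1 in fibroblasts was 317 CPM in PBS and 249 in PBS+RT, against 236 in LPS and 300 in LPS+RT. These lay within 0.743 to 1.27 times of one another in the 4 comparisons, none called. Adventitial fibroblasts had more C1s1 (591 CPM in PBS, 547 in PBS+RT and 711 in LPS+RT) than alveolar fibroblasts (226, 169, 212 and 232 CPM in the 4 libraries). Pericytes, the mural cells of capillaries, came next with 124, 122, 61.5 and 140 CPM. In Nos2/Arg1 macrophages C1s1 was 23.4 CPM in LPS and 11.5 in LPS+RT, 2.04-fold lower (1.39 to 3.09). That call ended under 5 alternatives, with ratios from 0.308 by own marker score, where the level limit was missed, to 0.764 at 1000 UMIs per barcode.

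C4b was mostly a fibroblast transcript here, at 349, 303, 500 and 379 CPM in PBS, PBS+RT, LPS and LPS+RT, and 89.0% to 92.3% of each library's C4b UMIs came from that class. LPS was highest, 1.44-fold above PBS (1.35 to 1.52), and LPS+RT was 1.25-fold above PBS+RT (1.18 to 1.32). In alveolar fibroblasts the same ratios were 1.55 (1.44 to 1.67) and 1.76 (1.64 to 1.90), and in adventitial fibroblasts LPS+RT against PBS+RT was 0.806 (0.730 to 0.889). In peribronchial fibroblasts it was 1.68 (1.31 to 2.16). Adventitial fibroblasts thus went opposite to the other kinds in LPS+RT against PBS+RT, without any call at 2-fold. They had no level in LPS, so LPS against PBS could not be compared there. Interstitial macrophages had 36.5 CPM in PBS from 30 UMIs in 73 cells, 5.6 in LPS and 4.8 in LPS+RT.

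Cfp encodes properdin, which stabilises the alternative convertase and is made by myeloid cells. It was 168 CPM in interstitial macrophages of PBS, 180 in LPS and 129 in LPS+RT. Dendritic cells had 81.6, 106, 89.5 and 125 CPM in PBS, PBS+RT, LPS and LPS+RT, classical monocytes 75.3, 106, 80.9 and 110, and neutrophils 84.6, 61.9, 75.4 and 52.6. In PBS and LPS the intervals of neighbours among these 3 classes overlapped. Alveolar macrophages had 64.7 CPM in PBS and 38.4 in PBS+RT, against 28.6 in LPS and 49.4 in LPS+RT. LPS was 2.27-fold below PBS (1.94 to 2.66), but LPS+RT was 1.28-fold above PBS+RT, so the 2 LPS comparisons went opposite ways. Within cluster 18, LPS was 1.93-fold below PBS (1.496 to 2.471), under the limit. Nos2/Arg1 macrophages had 66.4 CPM in LPS and 26.6 in LPS+RT, 2.50-fold lower (1.95 to 3.25). This call ended with a minimum of 1000 UMIs per barcode (0.574 times) and with cells named by their own marker score (0.561 times).

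Serping1 encodes the C1 inhibitor, which blocks the C1 proteases. In fibroblasts it stood at 1523 CPM in PBS and 1244 in PBS+RT, against 1222 in LPS and 1422 in LPS+RT, and no comparison was called, the ratios lying between 0.802 and 1.16. Adventitial fibroblasts had 2593, 2430 and 2831 CPM in PBS, PBS+RT and LPS+RT, alveolar fibroblasts 1152, 924, 1165 and 1208 in the 4 libraries, and peribronchial fibroblasts 429, 322 and 347 in PBS, PBS+RT and LPS+RT. The order adventitial, alveolar, peribronchial held in each of the 3 libraries with all levels. Within alveolar fibroblasts LPS against PBS was 1.01 (0.969 to 1.06). Pericytes had 213, 158, 147 and 204 CPM. Thinned to 2000 UMIs, 81.1%, 75.0%, 78.5% and 79.6% of fibroblasts had a Serping1 UMI, against 1.54%, 1.32%, 0.496% and 0.911% of B cells.

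Cd55 encodes decay-accelerating factor, a membrane protein that takes convertases apart. It was 506 CPM in B cells of PBS and 591 in PBS+RT, against 561 in LPS and 435 in LPS+RT, with ratios of 0.735 to 1.17 and no call. LPS+RT was lowest, at 0.735 times PBS+RT (0.681 to 0.794) and 0.775 times LPS (0.713 to 0.842). T cells had 65.7, 73.4, 44.0 and 57.8 CPM, fibroblasts 48.6, 48.6, 51.8 and 42.1. Thinned to 2000 UMIs, 62.4%, 66.3%, 60.8% and 55.8% of B cells had a Cd55 UMI, and 2.34%, 0.933%, 1.08% and 0.842% of endothelial cells. Neutrophils had 52.6, 43.8, 7.1 and 15.1 CPM from 23, 41, 131 and 51 UMIs. The 2 PBS libraries were above the 2 LPS libraries, and LPS+RT was 2.90-fold below PBS+RT (1.88 to 4.47), the only comparison with enough cells against a PBS library. Without cluster 52, which held 13 neutrophils in PBS+RT and 15 in LPS+RT, the ratio was 0.470 and missed the level limit. In cluster 30 the level was 31.3 CPM in PBS+RT, against 8.89 in LPS and 7.19 in LPS+RT, from 16, 10 and 3 UMIs, too few for a call.

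C3ar1, the receptor of C3a, stood at 248 CPM in interstitial macrophages of PBS, 252 of LPS and 247 of LPS+RT. The 3 levels were alike, and LPS+RT against LPS was 0.980 (0.902 to 1.06). PBS+RT had 44 cells of the class, too few for a level. The Nos2/Arg1 macrophages had 70.6 CPM in LPS and 97.9 in LPS+RT, 1.39-fold higher in the irradiated library. No other class passed 20.0 CPM, the level of dendritic cells in PBS+RT. Thinned to 2000 UMIs, 32.2%, 32.6% and 37.2% of interstitial macrophages of PBS, LPS and LPS+RT had a C3ar1 UMI, against 0.192%, 0% and 0.228% of B cells.

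C5ar1, the receptor of C5a and a chemoattractant receptor of granulocytes and macrophages, was lower in alveolar macrophages in both LPS libraries, and higher in nonclassical monocytes in LPS than in PBS. Alveolar macrophages had 249 CPM in PBS and 294 in PBS+RT, against 55.9 in LPS and 110 in LPS+RT. Both LPS libraries were below both PBS libraries, 4.45-fold (4.00 to 4.95) and 2.68-fold (2.55 to 2.81). Cluster 4 had 266, 295 and 195 CPM in PBS, PBS+RT and LPS+RT, so that LPS+RT was 1.51-fold below PBS+RT (1.42 to 1.61), which is not called. Cluster 18 had 141, 50.3 and 75.4 CPM in PBS, LPS and LPS+RT, LPS 2.80-fold below PBS (2.39 to 3.29). In LPS+RT against LPS the class was 1.96-fold higher, short of the limit. Thinned to 2000 UMIs, 41.7%, 41.7%, 15.1% and 20.6% of alveolar macrophages had a C5ar1 UMI, against 0.768%, 0.789%, 0% and 0% of B cells.

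Nonclassical monocytes, the patrolling monocytes of the vessel wall, had 59.6 CPM of C5ar1 in PBS and 97.8 in PBS+RT, against 188 in LPS and 91.7 in LPS+RT. LPS stood above the other 3 and was 3.15-fold above PBS (2.39 to 4.21). The 8 neutrophil markers summed to 430, 572, 431 and 430 CPM in that class. Of these markers 5, 6, 7 and 5 were detected in PBS, PBS+RT, LPS and LPS+RT, and Cxcr2 and Mmp9 were detected in LPS but not in PBS. Cluster 55, left unnamed and thus outside the class, had markers of nonclassical monocytes and of neutrophils. It held 38 cells in LPS and 4 in LPS+RT, and no others. Classical monocytes had 32.4, 85.7, 122 and 66.6 CPM of C5ar1, also highest in LPS. The neutrophil markers summed to 221, 342, 1318 and 330 CPM in classical monocytes, highest in LPS as well. The part of neutrophil RNA in the C5ar1 levels of either monocyte class was not tested. Neutrophils had 473, 485, 494 and 399 CPM, and interstitial macrophages 390 in PBS, 231 in LPS and 226 in LPS+RT. Among neutrophil clusters the C5ar1 level ran from 85.7 CPM in cluster 17 to 844 in cluster 30, both in LPS.

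**Figure D5:**
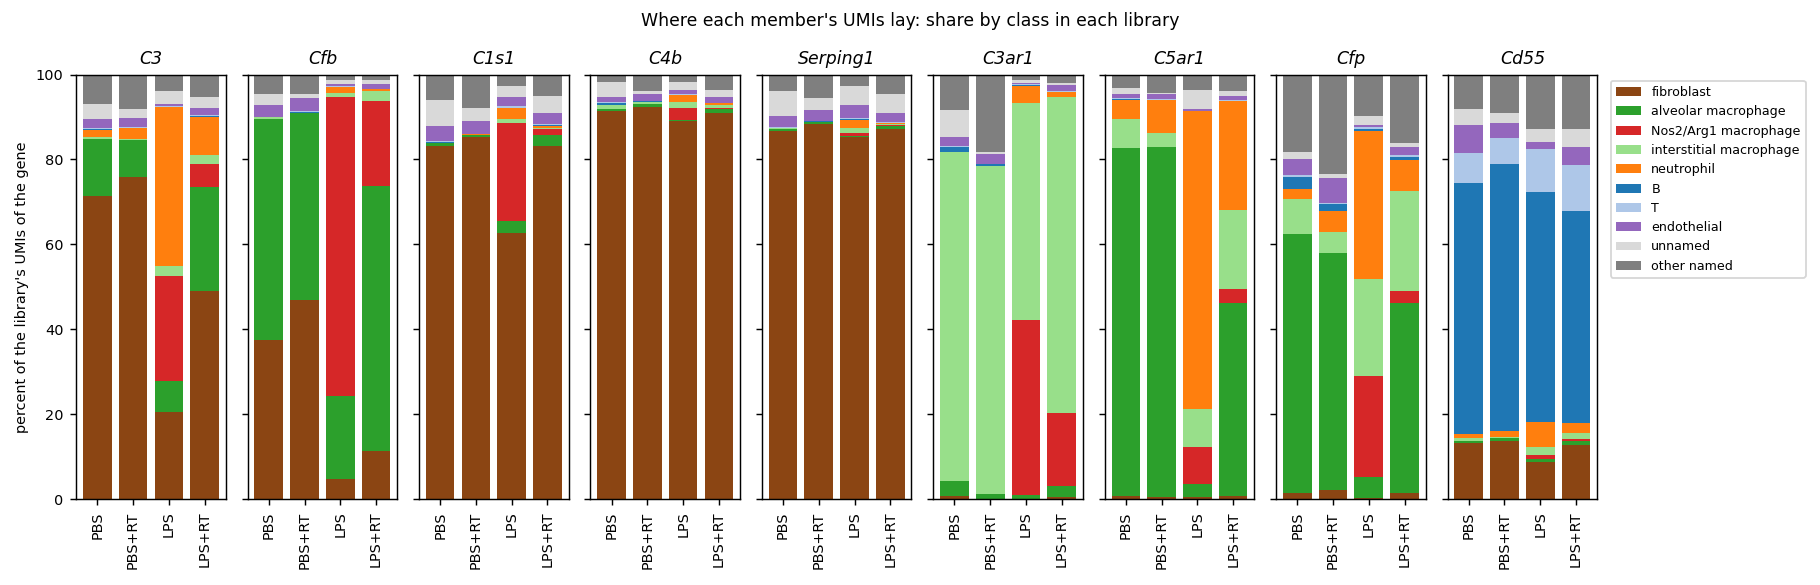
Share of each gene's UMIs in a library that came from each class (percent), for the 4 libraries. C4b and Serping1 come mostly from fibroblasts in all 4 libraries. In PBS the largest share of C3 lies in fibroblasts, and those of Cfb and C5ar1 in alveolar macrophages. In LPS the largest shares of C3 and C5ar1 lie in neutrophils, and that of Cfb in Nos2/Arg1 macrophages.

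The share of a gene's UMIs that a class supplied depends on its level and on its cells, whose numbers the enrichment can set. Fibroblasts supplied 71.5%, 75.9%, 20.4% and 48.9% of the C3 UMIs of the libraries in the usual order. In LPS, neutrophils supplied 37.4% and Nos2/Arg1 macrophages 24.7%. For Cfb, alveolar macrophages supplied 52.1%, 44.0%, 19.7% and 62.4%, and Nos2/Arg1 macrophages 70.3% in LPS and 20.0% in LPS+RT. For C5ar1, alveolar macrophages supplied 81.9% in PBS, 82.4% in PBS+RT and 45.4% in LPS+RT, and neutrophils 70.2% in LPS. Serping1 came from fibroblasts at 85.2% to 88.3% in every library.

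Calls in alveolar type 1 cells, the flat cells of gas exchange, rested in part on UMIs of single cells. C3 had 31.6 CPM in PBS and 73.9 in PBS+RT, against 98.8 in LPS and 91.0 in LPS+RT, with 3.13-fold (1.91 to 5.10) in LPS against PBS and 2.34-fold (1.63 to 3.42) in PBS+RT against PBS. Serping1 had 65.6, 158, 59.9 and 90.1 CPM and C4b 8.9, 39.4, 9.0 and 8.5, both highest in PBS+RT, at 2.40-fold (1.88 to 3.11) and 4.42-fold (2.34 to 9.22) the PBS level. C4b in LPS+RT was 4.62-fold below PBS+RT (2.31 to 10.5), and Cfb was 3.45-fold above it (2.00 to 6.10). The Cfb call ended at Leiden resolution 3, with a ratio of 1.92. In PBS+RT, 1 cell held 43 of the 148 C3 UMIs, and 1 held 46 of the 79 C4b UMIs. C5ar1 had 0.81, 27.5, 32.9 and 9.48 CPM, and 1 cell held 34 of its 55 UMIs in PBS+RT, against 1 UMI in all of PBS. Its calls there were thus 33.9-fold higher in PBS+RT than in PBS (5.83 to 1362) and 2.89-fold lower in LPS+RT than in PBS+RT (1.46 to 6.37). All 7 fibroblast markers were above 0 in these cells and summed to 651, 1667, 772 and 771 CPM, highest in PBS+RT as well. The 8 neutrophil markers summed to 103, 99.3, 1039 and 195 CPM, highest in LPS, with Ly6g at 0 there. From S100a8, RNA of other cells would give 50.7 CPM of C3 in LPS. The part of either in these calls was not tested. Without cluster 42, which held 45, 46, 10 and 30 of the cells, PBS+RT against PBS was 1.33 for C3, 1.09 for Serping1 and 0.692 for C4b.

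Endothelial cells had 13.03, 8.40, 29.4 and 22.8 CPM of C3, higher in the LPS libraries by 2.25-fold (1.84 to 2.76) and 2.72-fold (2.26 to 3.28). They had 2.81, 1.39, 30.2 and 10.6 CPM of Cfb, 10.7-fold higher in LPS than in PBS (7.70 to 15.3) and 2.85-fold lower in LPS+RT than in LPS (2.29 to 3.56). The last call ended with equal weight for each cell (0.524 times) and within clusters 1 (0.559) and 14 (0.603). C3 in LPS+RT against PBS+RT was 1.051 within cluster 3, 1.74 within cluster 1 and 1.83 within cluster 7, and in LPS against PBS it was 1.55 to 1.89 within clusters 1, 5 and 7, none called. Ratios of 2.89 for C3 within cluster 5 in LPS+RT against PBS+RT, of 3.26 within cluster 14 in LPS against PBS, and of 0.274 and 0.323 for Cfb within clusters 3 and 5 in LPS+RT against LPS missed the level limit. From the S100a8 level of the class, RNA of other cells alone would give 7.7, 2.7, 26.6 and 11.9 CPM of C3 and 1.3, 0.3, 27.7 and 8.8 of Cfb. The summed neutrophil markers were 66.4, 47.7, 538 and 102 CPM. In fibroblasts the same estimate was 3.3, 13.6, 46.2 and 41.4 CPM for C3 and at most 48.1 for Cfb, below the measured levels. In alveolar macrophages it was at most 25.3 CPM for C3. Its part in the results was not tested.

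The list of other complement genes held 40, C1q left out. In LPS against PBS 7 of 44 gene and class pairs were higher and 2 lower, against 4.22% and 3.42% of the pairs of all genes. In LPS+RT against PBS+RT 4 of 50 were higher and 8 lower (3.79% and 4.69% of all). In PBS+RT against PBS these were 4 of 43 and 1 (3.73% and 1.88%), and in LPS+RT against LPS 3 of 55 and 4 (1.66% and 2.73%). Itgam, the alpha chain of complement receptor 3, was 3.07 CPM in alveolar macrophages of PBS and 98.6 in LPS, 32.1-fold higher, and 12.6-fold higher in LPS+RT than in PBS+RT. C1ra, the partner protease of C1s1, was 2.01-fold and 2.43-fold higher there. C5ar2, the second receptor of C5a, was 39.5 CPM in PBS and 13.02 in LPS, 0.329 times. In fibroblasts Ptx3, a pentraxin that binds C1q, was 4.72 CPM in PBS and 31.9 in LPS, 6.76-fold higher, and C6, a terminal component, was 3.19-fold higher. C7, another terminal component, was 572 CPM in PBS and 1251 in PBS+RT, 2.19-fold higher. In LPS+RT against LPS, Ptx3, Itgam and C6 stood at 0.0788, 0.281 and 0.398 times in fibroblasts. Itgam is also expressed by neutrophils, whose markers summed to 544, 547, 1185 and 738 CPM in fibroblasts of the 4 libraries. In LPS, Itgam stood at 608 CPM in neutrophils and 492 in Nos2/Arg1 macrophages. The part of such cells in the Itgam level of alveolar macrophages was not tested. Ratios of these other genes within clusters were not examined.

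For each gene the 3 genes with the most similar pattern were found among 8247 genes, by Pearson's r of log2(CPM + 10) over the 45 combinations of class and library with at least 100 cells. The points share libraries and depth, so r is a description. Serping1 was closest to the collagen genes Col1a2 (0.99), Col6a1 (0.99) and Col3a1 (0.99), and C1s1 to Ptk7, Col6a2 and Col16a1 (0.97 each). C4b was closest to Igsf10, Fat3 and Syn2 (0.98 to 0.99). C3ar1 was closest to C1qa (0.97), Ms4a7 (0.97) and C1qb (0.96), all 3 markers used to name interstitial macrophages. C5ar1 was closest to Slc15a3, Nlrp3 and Sh2b2 (0.92 to 0.93), and Cfp to Clec4a2, Rbm47 and Pirb (0.92 to 0.93). Cfb was closest to Clmp (0.92), Ptgr1 (0.90) and Sh3pxd2b (0.85), C3 to Rhou (0.88), Mgst1 (0.85) and Cxcl1 (0.85), and Cd55 to Gm15675 (0.91), Traf3ip2 (0.88) and Blk (0.85).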

How the data were processed

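Single-cell libraries of mouse lung were analysed, 1 per group. Raw UMI counts of each gene in each barcode were deposited, written by Cell Ranger 7.0.1 per the file headers. The submitters' processing notes name Cell Ranger 7, R 4.2.2, Seurat 4.3.0 and mm10; the handling of intronic reads is not given in the sources used here. Barcodes shared between libraries were not analysed here.

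The filter on barcodes was 500 UMIs and 200 genes or more, with mitochondrial UMIs of up to 10%. A Scrublet-like score removed 1.78%, 2.22%, 1.77% and 3.09% of barcodes in PBS, PBS+RT, LPS and LPS+RT. Cells were clustered together on 2000 variable genes without any listed complement gene, with 30 components, 15 neighbours and Leiden resolution 1.5 (leidenalg 0.10.2, scikit-learn 1.9.0 and python-igraph 0.11.9; also scipy 1.17.1, numpy 2.4.6, scikit-image 0.26.0, pandas 2.3.3 and matplotlib 3.10.9 under Python 3.11.15). Clusters were named by at least 3 markers of 1 class, and 10 with markers of more than 1 class stayed unnamed. The naming thresholds were chosen once the clusters had been seen. The genes and lists were chosen with earlier results of these data known.

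Levels carry exact Poisson intervals, ratios exact conditional binomial intervals and shares exact Clopper-Pearson intervals, at 95%. A count of 0 was given a floor of 3 counts per library. All 9 genes are named, with at most 4 called genes of the other complement list per class and comparison, and the 3 most similar genes. The ratio step was tested on simulated LPS against PBS counts of 32285 genes with 200 changed 3-fold: 100% of these were called in alveolar macrophages, 99.5% in fibroblasts and 98.5% in alveolar type 1 cells, where 3.53% of unchanged genes were called too. The changed genes were drawn from those whose mean level met the limit. The simulated counts were Poisson draws of class totals. They hold no clumping of UMIs in single cells and no difference between mice, so they do not show how calls fare under these.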

Additional observations from a re-analysis of the deposited data

Results flagged for a closer look

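C5ar1 went opposite ways in LPS against PBS in different classes. Its ratio was 0.225 in alveolar macrophages (378 UMIs in 179 cells of LPS, 3807 in 629 cells of PBS) and 3.15 in nonclassical monocytes (209 UMIs in 123 cells of LPS, 68 in 129 cells of PBS). The difference between the classes was not tested, since each group is 1 library. In cluster 18 of the alveolar macrophages alone the ratio was 0.357, and cluster 4 had 13 cells in LPS, too few for a level.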

How the results depend on the processing

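Alternatives were a minimum of 1000 UMIs, no doublet removal, resolution 3, cells named by their own highest marker score, equal weight for each cell, totals without mitochondrial, ribosomal protein and hemoglobin genes, leaving out each cluster, a limit of 5 CPM and a fold of 1.5; values within 1 cluster were added after seeing the data. Of 28 calls at the full filter, 17 remained with cells named by their own score, 22 with equal weight and 26 or 27 under the other settings on cells and totals (24 of 26 at 1000 UMIs). Leaving out 1 cluster kept 41 of 49 calls that could be recomputed, and 19 of 48 held within 1 cluster. Reversed ratios were in alveolar type 1 cells: C4b in LPS+RT against PBS+RT was 1.14 both within cluster 13 and without cluster 42, and in PBS+RT against PBS 0.692 in both of these and 0.712 with equal weight. C5ar1 in LPS+RT against PBS+RT was 1.13 by own score. Counts of members called moved as follows. By own score, higher and lower calls were 31 and 6 in LPS against PBS, 9 and 2 in LPS+RT against PBS+RT, 1 higher in PBS+RT against PBS, and 5 and 16 in LPS+RT against LPS. The pairs tested were then 58, 33, 25 and 71, and of all genes' pairs 8.09% were higher and 6.75% lower in LPS against PBS, 3.81% and 5.11% in LPS+RT against PBS+RT, 5.25% and 2.31% in PBS+RT against PBS, and 3.12% and 4.98% in LPS+RT against LPS. With equal weight they were 2 lower in LPS+RT against PBS+RT, 1 higher in PBS+RT against PBS and 1 higher in LPS+RT against LPS. At 5 CPM they were 12 and 4, 8 higher, 3 lower, and 1 and 9 in the same order of comparisons. At 1.5-fold they were 4 lower in PBS+RT against PBS and 4 and 10 in LPS+RT against LPS. In LPS+RT against LPS, 1 was higher without doublet removal and 3 lower at 1000 UMIs. Of the other complement genes, 11 and 8, 15 lower, 10 and 8, and 8 and 7 were called at 1.5-fold in the same order, and at 5 CPM 13 were higher in LPS+RT against PBS+RT and 8 and 10 in LPS+RT against LPS. Those genes were recounted only at 1.5-fold and at 5 CPM. Thinning to 1000 UMIs lowered 113 of 157 shares beyond their interval and raised 0. Calls lost included Cfb in neutrophils, at 0.585 in LPS+RT against LPS without cluster 23, Cfp in alveolar macrophages, at 0.601 in LPS against PBS by own score, and Cd55 in neutrophils, at 0.538 in LPS+RT against PBS+RT with equal weight. The cause of these shifts was not tested. No paired analysis was possible because each group is 1 library with no replicate number. Neutrophil values of PBS rest on 76 cells.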

Other observations

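Alveolar type 2 cells and mesothelial cells had too few cells in named clusters, and their levels below come from cells named by their own highest marker score. C3 in alveolar type 2 cells was 91.5 CPM in PBS and 105 in PBS+RT, against 409 in LPS and 338 in LPS+RT, so both LPS libraries were above both PBS libraries. In mesothelial cells, the lining of the pleura, it was 156, 92.7, 1227 and 511 CPM in the same order, but 1 of 58 cells held 313 of the 447 UMIs of LPS. Without the cell with the most C3 UMIs in each library, an alternative chosen after seeing the data, mesothelial levels were 102, 74.5, 463 and 349 CPM and alveolar type 2 levels 66.6, 71.6, 399 and 274. C5ar1, which stood highest in neutrophils, was 5.38, 15.5, 73.9 and 16.4 CPM in these alveolar type 2 cells. In the mesothelial cells it was 19.5, 3.86, 255 and 5.55 CPM, so it was highest in LPS in both. Whether cells of other types were among the alveolar type 2 and mesothelial cells was not tested.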
